A study of Mus musculus with 4 samples.

Results

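The estrogen receptor ESR1 was mapped at the genes of the STAT5 pathway in mouse liver and uterus. The members are the signal transducers Stat5a and Stat5b, which lie side by side on chromosome 11, and the feedback genes Cish on chromosome 9 and Socs2 on chromosome 10. A peak belonged to a locus when its summit lay within 200 kb of the gene span, where the spans in the mm9 build were 100.64 to 100.75 Mb for the Stat5 pair, 107.19 to 107.21 Mb for Cish and 94.87 to 94.89 Mb for Socs2. These loci held 51 of the 31768 listed peaks, 20 of 6932 in liver and 31 of 24836 in uterus. The loci were chosen by the peaks seen in these lists, among them a shared site rich in tags in the Stat5 span, so that site's values and the numbers of peaks describe the choice and were given no test.

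The 4 samples of the series were an ESR1 ChIP-seq library and an input control from liver, and the same from uterus. Both tissues came flash-frozen from female C57BL/6 mice aged 8 weeks, for which the labels name no treatment; 100 mg was crosslinked for 15 minutes in 1% formaldehyde and stopped with 125 mM glycine. The labels do not say whether a library held 1 animal or a pool. With 1 library per tissue there is no spread between animals, so no difference between tissues was tested, and every interval below covers counting error only. Whole tissue was used, so more bound cells and more binding per cell cannot be told apart. The lists carry no expression values, so neither the tissue labels nor the activity of these genes could be checked here.

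STAT5 proteins are held inactive in the cytoplasm until a cytokine or hormone receptor, such as those for growth hormone and prolactin, activates a JAK kinase that phosphorylates them. They then dimerise, enter the nucleus and bind DNA. In liver, STAT5B carries much of the growth hormone signal, including the difference between male and female hepatocytes. CISH and SOCS2 are SH2-domain proteins whose genes STAT5 switches on and which damp the same receptors, closing a feedback loop. Mice without Socs2 overgrow. ESR1 is a ligand-activated nuclear receptor and binds an inverted repeat of GGTCA, the estrogen response element.

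RefSeq promoter windows, which run from 250 bases before a start site to 50 after it on the GRCm38.p6 build, were found for 3 of the 4 genes: 1 window for Cish and 2 each for Stat5a and Stat5b. The STAT element TTCNNNGAA was searched on both strands, as was GGTCA, a single arm of the estrogen response element; the motifs share no position in the windows below. The Cish window is shown, with matches in capitals, because Cish is a known STAT5 target and STAT5 binds such elements. It lies at chr9:107296409-107296708 on the plus strand.

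Cish: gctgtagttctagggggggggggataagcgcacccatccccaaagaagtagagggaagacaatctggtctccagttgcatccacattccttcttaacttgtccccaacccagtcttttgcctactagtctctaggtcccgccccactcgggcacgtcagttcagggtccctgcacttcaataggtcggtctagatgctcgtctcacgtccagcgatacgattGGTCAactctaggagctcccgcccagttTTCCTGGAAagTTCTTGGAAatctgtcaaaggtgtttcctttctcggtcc

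The Cish window held 2 STAT elements, TTCCTGGAA and TTCTTGGAA, which began at bases 251 and 262 of the 300, that is at bases 1 and 12 from the start site. At least 1 such element was found in 8.30% of the 32851 promoter windows of all genes, and 2 or more in 0.457%. The same window held 1 GGTCA arm, which is a common word present in 40.5% of all windows.

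Stat5a and Stat5b had no STAT element in their windows. The second Stat5b window, at chr11:100850532-100850831 on the minus strand, held no GGTCA arm. The Stat5a window at chr11:100859406-100859705 on the plus strand is shown because it held 4 GGTCA arms, in capitals, on both strands. Among all windows 10.8% held 2 or more, and the share with 4 or more was not counted.

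Stat5a: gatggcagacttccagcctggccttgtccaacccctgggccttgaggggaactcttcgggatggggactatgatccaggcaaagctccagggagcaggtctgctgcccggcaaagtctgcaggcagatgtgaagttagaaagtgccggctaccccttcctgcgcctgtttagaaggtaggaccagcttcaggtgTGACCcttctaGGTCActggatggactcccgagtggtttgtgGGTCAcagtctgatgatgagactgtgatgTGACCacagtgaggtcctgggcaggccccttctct

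The full estrogen response element, GGTCA and its reverse complement TGACC with any 3 bases between, matched in none of the 5 windows and in 0.0700% of all windows. The other Stat5a window, on the plus strand at chr11:100860234-100860533, and the Stat5b window that lies on the minus strand at chr11:100822521-100822820 each held 1 arm, and the bases around it were alike in both genes. These stretches are set side by side to show the likeness of the paralogues, with the arm in capitals.

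Stat5a: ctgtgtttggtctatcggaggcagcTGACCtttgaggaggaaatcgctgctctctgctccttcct

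Stat5b: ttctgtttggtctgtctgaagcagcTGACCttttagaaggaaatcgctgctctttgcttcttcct

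Of these 65 bases 56 were identical, the longest identical run being 16 bases. The peak positions below belong to mm9 and these windows to GRCm38.p6, and positions were not converted between builds, so whether a listed peak covers any of these windows was not analysed here.

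The libraries were of like depth, and the lists of unlike length. Unique tags numbered 20016495 in the liver and 22298008 in the uterus ESR1 library, of which 2.42% in liver and 8.80% in uterus lay inside peaks. A listed peak held at least 18 tags in liver and at least 16 in uterus, so a site without a peak is one that missed the authors' cutoff in that library and not one shown to be unbound. Depth-scaled tags below are tags per 1000000 unique ChIP tags of the library. Fold enrichment and score are the authors' values for each peak and rank peaks within their own list only.

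At the Stat5 pair both tissues had many ESR1 peaks. Within 200 kb of the span lay 12 liver and 13 uterus peaks, that is 23.5 and 25.5 per Mb, against 4.62 and 13.7 per Mb on chromosome 11 as a whole. When the autosomes were divided into consecutive tiles as wide as this window, 0.917% of 4688 tiles held at least 12 liver peaks and 10.3% held at least 13 uterus peaks. Most of the liver peaks, 9 of 12, had their summit inside the 110 kb span, as did 8 of the 13 uterus peaks. Of these, 2 of 12 liver and 2 of 13 uterus peaks overlapped a peak of the other tissue by at least 1 bp, while over the whole lists 23.7% of liver and 6.58% of uterus peaks did. That left 10 liver-only and 11 uterus-only sites at the locus. The nearest neighbours by gene order in RefSeq are Ghdc and Hcrt on the Stat5b side and Stat3 and Cavin1 on the Stat5a side. Stat3 is a further STAT family member. Gene order gives no distances, so whether the window takes these genes in was not analysed here. No peak was assigned to any one gene.

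**Figure D1:**
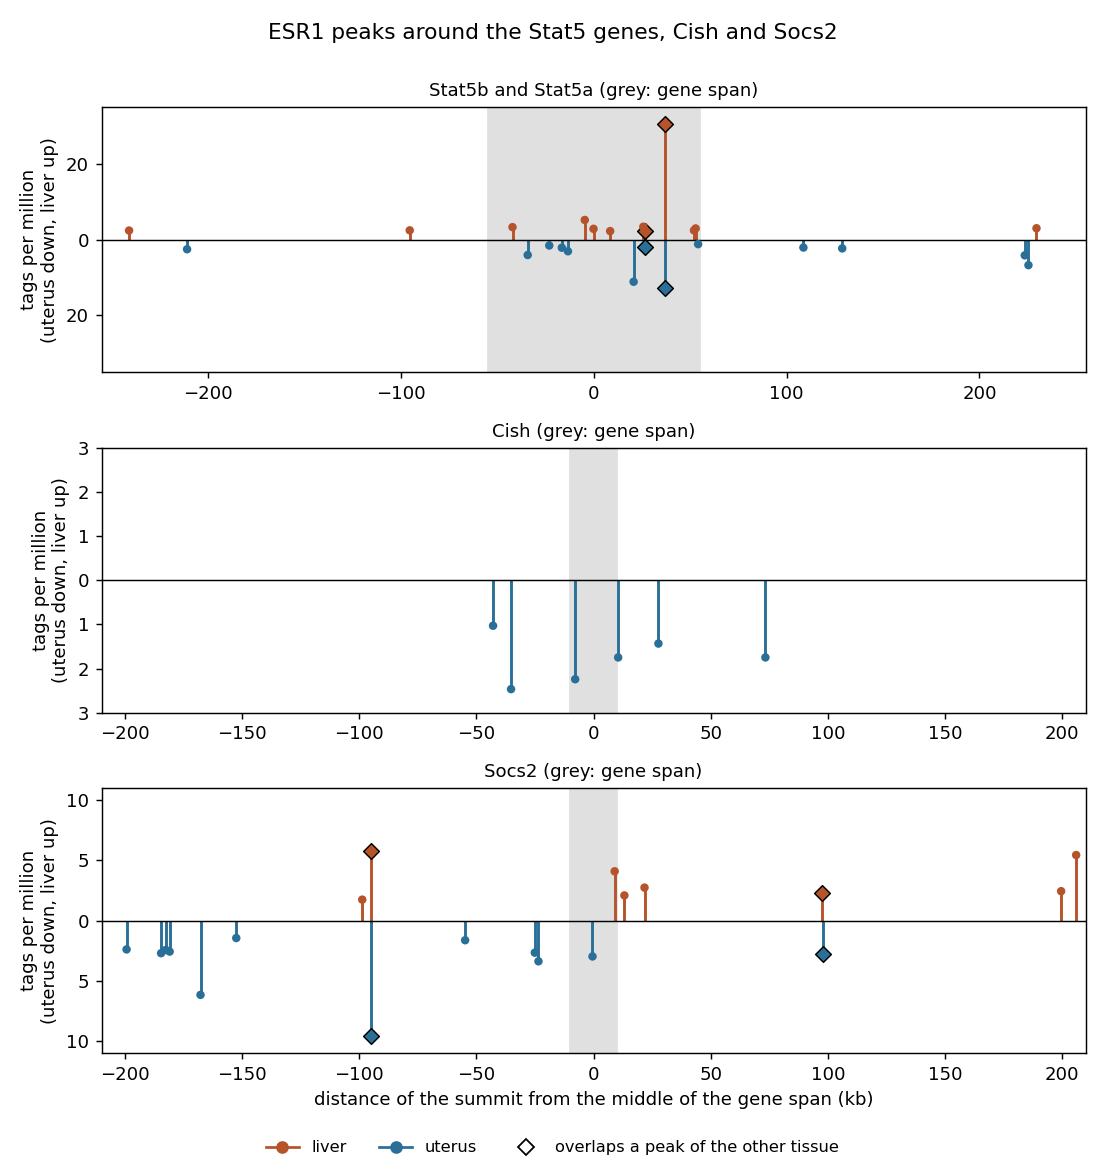
Each stem is 1 peak at the distance of its summit from the middle of the gene span (kb, grey), with its depth-scaled tags (per 1000000 unique tags), liver upward and uterus downward, and diamonds mark peaks that overlap a peak of the other tissue. The tallest liver stem, 30.5 depth-scaled tags, stands in the Stat5 span above a uterus stem of 12.7, and the Cish panel has no liver stem.

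The site with the most tags at the locus, in both lists, was the shared one named in the choice of the loci. It spanned 100731372 to 100732666 in liver with 611 tags, 55.4-fold over control, and 100731611 to 100732470 in uterus with 284 tags, 74.1-fold. Both summits were placed on the same base, 100732108. Summits at the same base were found in 14 of the 1651 overlapping pairs of the lists, or 0.848%, and the median distance over all pairs was 38 bp. In liver the site ranked 4 of 6932 by tags, and it ranked 31 by fold enrichment, whereas 2 of the 4 liver peaks that reached 611 tags had a fold under 5. In uterus it ranked 679 of 24836 by tags and 478 by fold enrichment, within the top 2.73% and 1.92% of the list. Its MACS score in liver was 3100, a capped value held by 11 liver and 279 uterus peaks. Its score in uterus, below that cap, was 2313.

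The shared Stat5 site had 30.5 depth-scaled tags in liver (exact Poisson interval of 95%, 28.2 to 33.0) and 12.7 in uterus (11.3 to 14.3). The liver over uterus ratio was 2.40 (exact interval 2.08 to 2.77), against a median of 1.08 and quartiles of 0.698 and 1.57 over all 1651 pairs. A ratio of at least 2 was seen in 14.7% of all pairs and one of at most 0.5 in 15.4%, and 91.3% of pairs had a lower ratio than this site. The size of the ratio rests on the scale. The liver peak was wider, 1295 bp against 860 bp in uterus, and per kb of peak it held 472 tags in liver and 330 in uterus, which made the depth-scaled ratio 1.59. As a share of all tags inside the peaks of each list, the ratio was 8.72, since more of the uterus tags lie inside peaks. Liver was higher in depth-scaled tags and per kb of peak. The share scale raises the ratio of every pair by the same factor, so its direction adds nothing here. The authors' fold enrichment was 55.4 in liver and 74.1 in uterus, but it ranks peaks within a list only.

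The other shared site of the Stat5 span lay 10.3 kb from it and was weak in both lists. Its liver peak at 100721473 to 100722119 had 43 tags and 9.41-fold enrichment, and its uterus peak at 100721499 to 100722095 had 46 tags and 7.85-fold enrichment, with summits 67 bp apart. In depth-scaled tags it had 2.15 in liver and 2.06 in uterus, a ratio of 1.04 (0.671 to 1.61), or 0.961 per kb of peak. The interval holds 1 but covers counting error only, so no difference or likeness between tissues is read from it. As a share of tags inside peaks the ratio was 3.79.

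**Figure D2:**
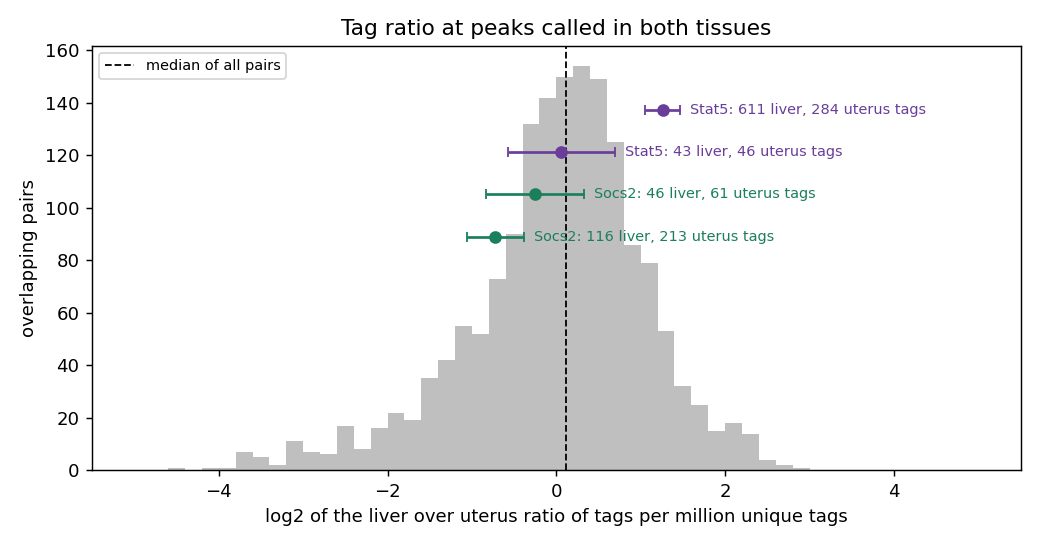
Grey bars count all 1651 overlapping pairs by the log2 of their liver over uterus ratio of depth-scaled tags, the dashed line is their median, and points with exact counting intervals are the 4 pairs at these loci at arbitrary heights. The Stat5 pair of 611 liver and 284 uterus tags lies right of 91.3% of the pairs, and the Socs2 pair of 116 liver and 213 uterus tags lies left of the median.

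By fold enrichment, score and tags per kb of peak, uterus binding inside the Stat5 span was led by a site with no overlapping liver peak. A uterus-only peak with its summit at 100715749 held 249 tags at 96.5-fold enrichment, rank 162 of 24836 by fold, at 5.02 kb from any liver summit. It stood 16.4 kb from the shared summit. A second uterus-only peak at 100660841 had 91 tags and 48.4-fold enrichment, with a liver summit 7.88 kb off. Between them lay weaker uterus-only peaks at 100672018, 100678528 and 100681705, with 35, 48 and 69 tags and 9.59- to 15.7-fold enrichment. Near the end of the span was one at 100749183, with 27 tags and 13.2-fold.

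The liver-only peaks of the span were weaker than the shared site but spread over its whole length. The strongest by tags had its summit at 100690427, with 104 tags and 17.0-fold enrichment, 8.72 kb from the nearest uterus summit. By fold enrichment the first was at 100652963, with 66 tags and 21.8-fold, and the next at 100720765, with 68 tags and 19.2-fold. The peak at 100720765 stood 1.03 kb from the weak shared liver summit and 1.10 kb from the uterus one, without overlapping that uterus peak. The remaining liver-only peaks inside the span, at 100694968, 100703584, 100747035 and 100747900, had 57, 45, 49 and 59 tags and 8.60-, 8.59-, 13.4- and 13.3-fold enrichment. The last of these was 1.28 kb from the uterus peak at 100749183 and 0.865 kb from its liver neighbour.

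Outside the Stat5 span the sites were few. On the lower side were liver peaks at 100454192 and 100599680, with 48 and 49 tags and 10.01- and 7.07-fold enrichment, and a uterus peak at 100484257 with 57 tags and 10.9-fold. On the higher side liver had 1 peak, at 100924593, with 60 tags and 8.06-fold enrichment. Uterus had 4 there, with 47, 52, 93 and 151 tags in order of position, and the last, at 100920427 and 13.2-fold enriched, stood 4.17 kb from that liver summit. Of the 10 liver-only and 11 uterus-only sites at the locus, 6 of each had a summit of the other tissue within 10 kb.

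Raw tags summed over the peaks of the Stat5 locus were nearly equal, with liver higher once scaled by depth, and were differently distributed. They came to 1259 in liver over 8352 bp of peaks and 1249 in uterus over 8292 bp, or 62.9 depth-scaled tags in liver and 56.0 in uterus, with 151 tags per kb of peak in each. The shared site supplied 48.5% of the liver sum and 22.7% of the uterus sum. Without it 648 tags were left in liver and 965 in uterus.

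**Figure D3:**
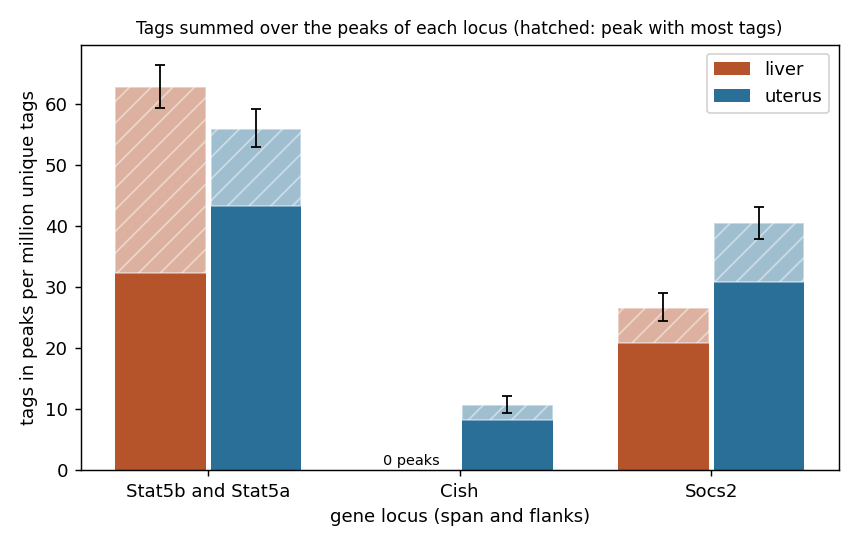
Bars are depth-scaled tags (per 1000000 unique tags), summed over the listed peaks of each locus, with exact Poisson intervals of 95%, liver left of uterus, and the hatched part is the peak with the most tags. The Stat5 sums are 62.9 in liver and 56.0 in uterus, the Socs2 sums 26.7 and 40.5, and Cish has 0 liver peaks.

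Cish carried ESR1 peaks in the uterus list alone. There were 0 liver peaks and 6 uterus peaks within 200 kb of the gene. Empty windows of this width are common in the liver list: 59.8% of 5694 autosomal tiles held no liver peak and 29.8% held at least 6 uterus peaks. The uterus peaks lay within 116 kb of each other and were weak by tags. From the lowest to the highest position they held 23, 55, 50, 39, 32 and 39 tags, at 11.01- to 18.6-fold enrichment. All of them had no more than 55 tags, the median of the uterus list, and none was in its top 10% by tags. By fold enrichment the peaks at 107273348 and 107164763, at 18.6 and 14.9, were above the list median of 14.7. The others were below it.

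Peaks close to the Cish gene itself were among them. The summit at 107192141, with 50 tags and 11.01-fold enrichment, fell inside the span. The summit at 107210487, with 39 tags and 13.6-fold, lay 0.487 kb beyond its upper end. The peak of highest fold enrichment, 18.6 with 39 tags, was at 107273348, 63.3 kb above the span. Together the 6 peaks held 238 tags over 3004 bp, or 10.7 depth-scaled tags and 79.2 tags per kb of peak.

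The absence of liver peaks at Cish depended on the width of the window. The nearest liver summit lay 226 kb above the span, at 107436231, with 169 tags and 31.8-fold enrichment, just outside the limit. A uterus peak with its summit at 107436266 had 80 tags and 17.7-fold enrichment there. Within 250 kb, a distance chosen after the data had been seen, 3 liver peaks were counted. By RefSeq gene order Cish lies between Mapkapk3 and Hemk1, with Cacna2d2 further on the upper side, and that distant site was not assigned to a gene.

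At Socs2 both tissues had several peaks and the shared sites stood at a distance from the gene. There were 8 liver and 12 uterus peaks within 200 kb, that is 19.0 and 28.6 per Mb, against 2.90 and 11.7 per Mb on chromosome 10. Among the 5694 tiles of this width, 2.49% held at least 8 liver peaks and 8.32% at least 12 uterus peaks. Shared peaks were 2 of 8 in liver and 2 of 12 in uterus, beside 23.7% and 6.58% of the whole lists. The liver peaks lay mainly above the span, 5 of 8, and the uterus peaks mainly below it, 10 of 12.

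Near the Socs2 gene no listed peak of a tissue overlapped one of the other. Liver had a peak inside the span with its summit at 94888996, 82 tags and 11.8-fold enrichment, followed by 2 weaker ones 3.15 and 11.7 kb above the span, with 42 and 55 tags and 8.16- and 5.98-fold enrichment. Uterus had a peak inside the span at 94879530, with 66 tags and 11.7-fold enrichment, 9.47 kb from the liver one. It also had peaks 15.1 and 13.5 kb below the span, with 59 and 75 tags and 19.1- and 31.4-fold enrichment, whose nearest liver summits were 34.1 and 32.5 kb away.

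The stronger shared site of Socs2 lay 85.1 kb below the span. Its liver peak at 94784510 to 94785356 had 116 tags at 15.0-fold, and its uterus peak at 94784497 to 94785333 had 213 tags at 27.3-fold, with summits 44 bp apart. It was the peak with the most tags at this locus in both lists, in the top 8.71% of liver and 5.05% of uterus. It had 5.80 depth-scaled tags in liver (4.79 to 6.95) and 9.55 in uterus (8.31 to 10.9). The ratio was 0.607 (0.480 to 0.764), the opposite direction to the tag-rich shared Stat5 site, and 0.600 per kb of peak. As a share of tags inside peaks it was 2.21, so the direction at this site turned with that scale. A liver-only peak with 35 tags and 11.1-fold enrichment stood 3.65 kb below the shared liver summit.

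The weaker shared site of Socs2 lay 87.5 kb above the span in liver and 87.7 kb in uterus. Its liver peak had 46 tags and its uterus peak 61, with 8.67- and 8.34-fold enrichment and summits 250 bp apart. The ratio was 0.840 (0.560 to 1.25), with 1 inside this interval of counting error. As a share of tags inside peaks it was 3.06, in the other direction.

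Strong single-tissue sites stood at the edges of the Socs2 window. In liver the peak of highest fold enrichment, 29.4 with 109 tags, had its summit at 95086012, 196 kb above the span and near the limit, with the nearest uterus summit 20.9 kb away. Its liver neighbour, 6.41 kb below, had 49 tags and 11-fold enrichment. In uterus the peak at 94712186, 158 kb below the span, had 137 tags and 35.3-fold enrichment, with no liver summit closer than 69.0 kb. A run of 3 weaker uterus peaks with 60, 54 and 57 tags in order of position began 13.2 kb below it, their summits 2002 and then 1651 bp apart. The other uterus-only peaks, at 94680621, 94727450 and 94825157, had 53, 32 and 36 tags. The sums at Socs2 were 534 tags over 5389 bp of peaks in liver and 903 over 7711 bp in uterus, that is 99.1 and 117 tags per kb. By gene order Cradd lies on the lower side and Mrpl42 and Ube2n on the upper side, and no site was assigned to a gene.

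Across the 3 loci, 4 of 20 liver peaks (20%) and 4 of 31 uterus peaks (12.9%) were shared. Most peaks of both whole lists are likewise in 1 list only, so this is no trait of these loci. The limit of 200 kb bears on the count, since within 250 kb 9 of 28 liver and 9 of 42 uterus peaks were shared. The last peaks inside the limit were those at 196 kb above the Socs2 span in liver and 189 kb below it in uterus. Closest outside it was a uterus peak of 35 tags, 207 kb below the Socs2 span. Nearest outside the limit above the Socs2 span were a liver peak of 44 tags and a uterus peak of 38 tags, both at 217 kb. A liver peak of 61 tags lay 233 kb below the Stat5 span. Above that span came a liver peak of 68 tags at 242 kb and a uterus peak of 318 tags at 246 kb. Apart from these and the pair named at Cish, peaks between 200 and 250 kb are not listed here.

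In strength the members were ordinary apart from the few sites named. The median was 56 tags and 11.04-fold enrichment in liver, against 58 and 11.2 in the whole list, and 55 tags and 13.2-fold in uterus, against 55 and 14.7. In the top 10% of their list by tags were 2 of the 20 liver and 4 of the 31 uterus peaks. Crowding was seen in liver, where 14 of 20 members had another liver summit within 10 kb, against 40.3% in the whole list; in uterus it was 14 of 31, against 47.5%. Since the loci were chosen as places with peaks, these counts describe them and were not tested.

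**Figure D4:**
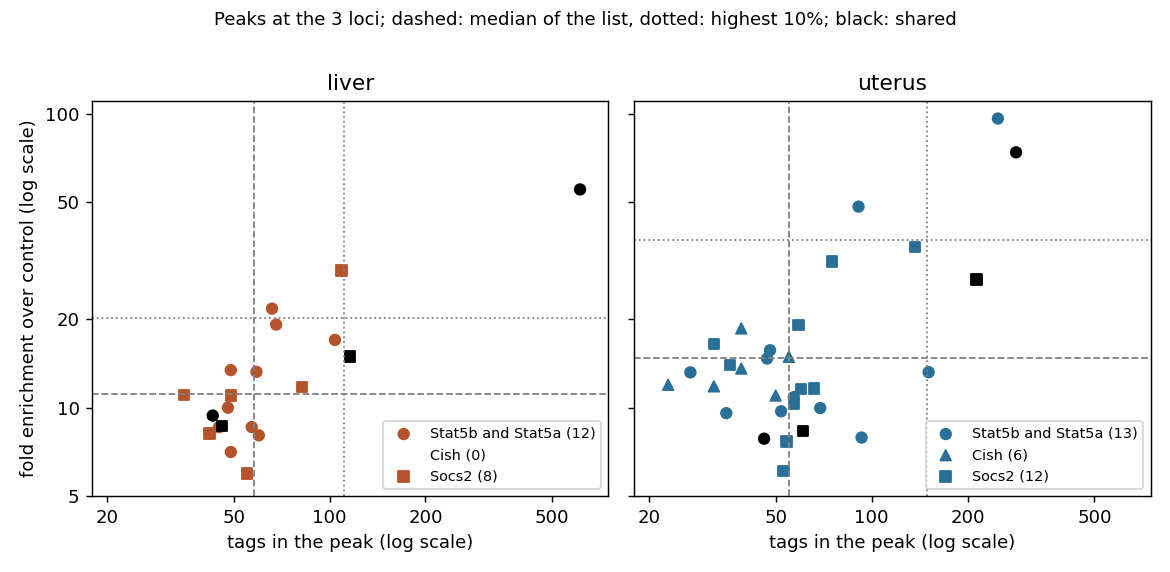
Each point is 1 peak at the 3 loci by its tags and its fold enrichment (both axes logarithmic), liver left and uterus right, with black points for shared peaks, dashed lines at the median of the whole list and dotted lines at the start of its highest 10%. The shared Stat5 site with 611 tags stands alone at the upper right in liver, and in uterus it is accompanied by the uterus-only peak of 249 tags.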

How the data were processed

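ChIP-seq peaks had been called by the authors with MACS 1.3.7.1 on mm9, per the submitters' processing notes, separately in each ESR1 library against 1 control, with a p cutoff of 1e-10, per the file headers. No source used here names the aligner. The tag count of a peak is a raw count as deposited. The deposited fold enrichment is a ratio to the local background, the deposited score is 10 times −log10 of the p-value, and the false discovery rate is given in percent in the deposited lists. Input libraries were not analysed here on their own.

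From these, summits were set at start + summit − 1, peaks within 200 kb of the gene spans were taken, and overlap of at least 1 bp was called shared. Tags were divided by the unique ChIP tags of the library. Poisson intervals of counts and conditional binomial intervals of ratios are exact, at 95%. Tiles, and the lengths behind peaks per Mb of chromosome, ran from the first to the last summit. The overlap and window steps were tested on simulated data. The members, lists and comparisons were chosen with earlier results of these data known. Each overlapping pair, every liver peak, every peak inside a span and, per locus and list, the peaks with the most tags and the highest fold were to be described. Other pathway genes, and motifs at the peaks, were not analysed here, since they need mm9 positions and sequence. Alternatives were other distances, overlap rules, thresholds and scales. The software was scipy 1.17.1, pandas 2.3.3 and numpy 2.4.6 under Python 3.11.15, with figures from matplotlib 3.10.9.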

Additional observations from a re-analysis of the deposited data

How the results depend on the processing

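No paired analysis was possible because each tissue has 1 library. Of 70 alternative counts of peaks, 45 stayed within 1.5 times the count above. Some of the 45 could not have moved, as 0 liver peaks at Cish stay 0 in narrower windows and under stricter thresholds. Shifting the summits by 1 base or taking peaks by any overlap with the window left every count of peaks per locus as it was. These rules could have changed only peaks at the edge of a window. In narrower windows some counts fell, while within 100 kb uterus peaks at Cish stayed at 6 and shared peaks at 4 in each list. Within 100 kb uterus peaks at Socs2 numbered 6, and within 50 kb 13 liver and 17 uterus peaks were left at the 3 loci, with 8 uterus peaks at Stat5, and 3 liver and 4 uterus peaks at Socs2. Within 250 kb, added after the data were seen, liver peaks at Cish numbered 3, uterus peaks at Socs2 19, and shared peaks 9 in each list. Stricter peaks did the same by construction. At a MACS score of at least 200, 7 liver and 13 uterus peaks were left, which were 4 and 6 at Stat5, 0 and 2 at Cish, and 3 and 5 at Socs2. At a fold enrichment of at least 10, 12 liver peaks were left, 7 at Stat5 and 5 at Socs2, and uterus peaks at Stat5 numbered 8. Under either threshold 2 peaks of each list were shared. With summits within 200 bp as the rule 3 were shared in each list. The tag ratio of the tag-rich shared Stat5 site was 8.72 as a share of tags in peaks and 1.59 per kb. Per total tags it was 2.40. At the other 3 pairs the share of tags in peaks gave 2.21, 3.06 and 3.79, above 1 where 2 of them had been below it; the higher share of tags in peaks in uterus sets this by construction. Only the Stat5 pair of 611 liver and 284 uterus tags had a ratio past a factor of 2 in depth-scaled tags. Per kb it stayed above 1, at 1.59, but below that factor. The share of tags in peaks could only raise it, and total tags scale almost as unique tags do. Neither could have turned its direction. The Socs2 pair at 0.607 turned to 2.21, although its interval of counting error, 0.480 to 0.764, lay below 1. The weak Stat5 pair, 1.04 in depth-scaled tags, was 0.961 per kb. Depth limits the weak sites: the Stat5 pair of 43 liver and 46 uterus tags has an interval of 0.671 to 1.61. That interval covers counting error and leaves out any spread between animals.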
